A study of Homo sapiens with 4 samples.

Results

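The Krüppel-like factor (KLF) genes encode transcription factors that bind GC-rich and CACCC elements in promoters through a conserved block of zinc fingers at the end of the protein. Here 10 of them were followed in LNCaP prostate cancer cells, namely KLF3, KLF4, KLF5, KLF6, KLF9, KLF10, KLF11, KLF13, KLF15 and KLF16. They were taken by name from the 60675 annotated genes, and other KLF genes are described after them. The family is read in branches by the cofactors its members recruit. KLF3 is a repressor that binds CtBP, KLF4, KLF5 and KLF6 carry activation domains that recruit histone acetyltransferases, and KLF9, KLF10, KLF11, KLF13 and KLF16 hold a short helix that binds the SIN3 corepressor, while KLF15 stands apart. In prostate epithelium KLF4, KLF5 and KLF6 are known from work on growth control and tumour suppression, and KLF9 and KLF15 are known as steroid-responsive genes in other tissues.

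RNA was sequenced from LNCaP, an androgen-responsive human line grown from a lymph node metastasis of prostate cancer. All cultures were kept in hormone-depleted medium and received 1 nM R1881, a synthetic androgen, for 72 h. One group received R1881 with the DMSO vehicle (2 libraries), and the other received R1881 together with 50 µM CPI-455, an inhibitor of the KDM5 histone H3 lysine 4 demethylases (2 libraries). No library lacks R1881, so the action of androgen itself was not measured, and a single established line was used. The sample labels and the study's methods give different final DMSO concentrations. Counted fragments numbered 19623553 and 20690819 in the vehicle libraries and 9522920 and 5401588 in the CPI-455 libraries, so 1 fragment was worth 0.0483 to 0.0510 CPM (counts divided by the library's total and scaled to a fixed sum) under vehicle and 0.105 to 0.185 CPM under CPI-455. The 10 luminal prostate markers were all detected, with a summed level of 916 to 994 normalized CPM under vehicle and 389 to 446 under CPI-455. By the rule given below 7 of the 10 were called lower, beside 21.3% of all tested genes. KLK2 was the marker that went the other way, with a log2 fold change (CPI-455 over vehicle) of 0.56, and was not called. The 14 markers of basal, fibroblast, endothelial and white blood cells summed to 9.61 to 10.2 CPM and 14.1 to 18.4 CPM, with KRT5 at 0 in every library. Of these, 3 were tested, 1 was called higher (21.0% of all tested genes) and none lower. The called marker was COL1A1, at 4.97 and 4.03 CPM under vehicle and 10.1 and 7.73 CPM under CPI-455. MALAT1, a nuclear long non-coding RNA, took 0.0884% to 0.114% of counts under vehicle and 4.95% to 6.49% under CPI-455. KLF6, KLF5 and KLF13 were called in the same direction with counts thinned to the shallowest library. With scaling factors computed without mitochondrial genes and MALAT1, the log2 fold changes were 2.52 for KLF6, -1.34 for KLF5 and -1.68 for KLF13. Any part of MALAT1 beyond this scaling was not tested, nor was that of the luminal markers. In bulk RNA fewer cells of a type and less RNA per cell cannot be told apart.

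Of the 10 KLF genes, KLF6 rose by at least 2-fold under CPI-455, and KLF5 and KLF13 fell by at least 2-fold. The 17600 genes that passed a filter on low counts were tested by the quasi-likelihood method of edgeR. A gene was called when the change was at least 2-fold and its false discovery rate (FDR, after Benjamini and Hochberg over those genes) was below 0.05. All 10 KLF genes passed the filter on low counts, with 55 to 3334 counts per library. By this rule 1 of the 10 was called higher, against 21.0% of all tested genes, and 2 of the 10 were called lower, against 21.3%. Among tested protein-coding genes 15.6% were called higher and 24.4% lower. With the FDR alone, 2 were higher (29.8% of all tested genes) and 5 were lower (32.8%). Read against these backgrounds, the number of KLF genes called is not a result about the family. The median log2 fold change of the 10 genes, CPI-455 over vehicle, was -0.42, beside -0.04 for all tested genes and -0.21 for tested protein-coding genes. These medians were -0.12, 0.03 and -0.06 after a fitted curve for GC content and exon length was subtracted in each library, which is called the length and GC trend here. Scaling by library totals moved the median of all tested genes to -0.23 and upper-quartile factors moved it to 0.14, and the 10 KLF genes kept their direction under both.

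**Figure D1:**
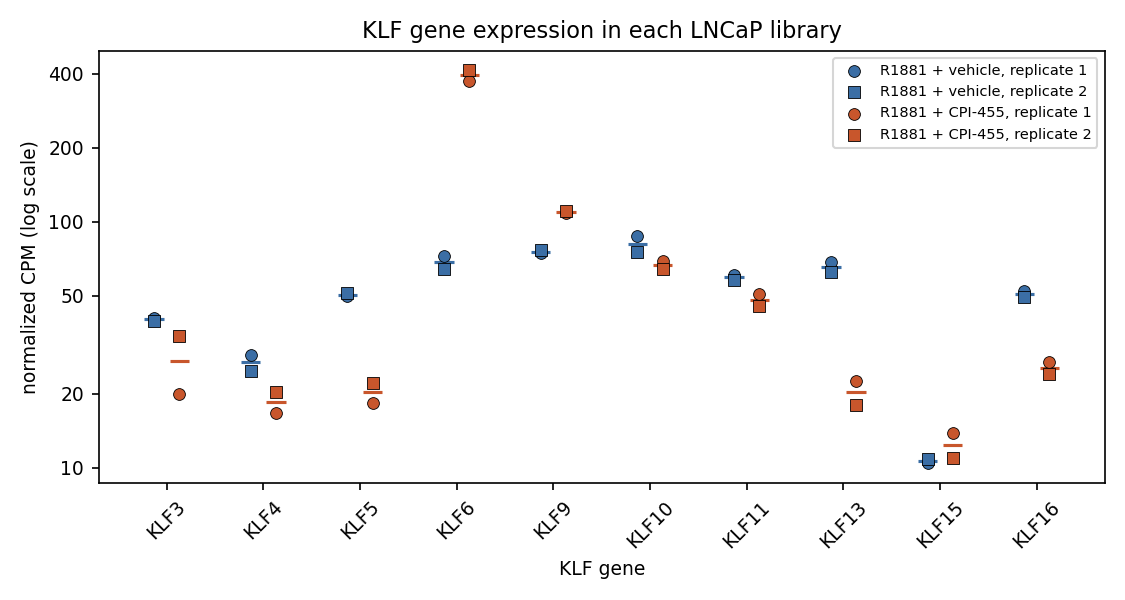
Normalized CPM of each KLF gene on a log scale, with circles for replicate 1, squares for replicate 2 and a short line at the mean of each group of 2 libraries. The KLF6 points lie between 64.6 and 72.5 CPM under vehicle and between 375 and 413 under CPI-455, while the KLF3 points under CPI-455 lie apart at 20.02 and 34.3.

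In the activator branch, KLF6 encodes a zinc finger activator that is induced early after injury and stress and is known as a candidate tumour suppressor in the prostate. KLF6 (ENSG00000067082) lies on the reverse strand of chromosome 10 of GRCh38 from 3775996 to 3785281 and has 4 exon blocks, none of whose bases is shared with another gene. It was counted 1531 and 1410 times under vehicle and 3334 and 2085 times under CPI-455, in libraries of less depth. Its normalized level was 72.5 and 64.6 CPM in the vehicle libraries and 375 and 413 CPM in the CPI-455 libraries. The groups did not overlap, and the gap between them was far wider than that between replicates of either group. The mean rose from 68.5 ± 5.60 CPM (SD, n = 2) to 394 ± 27.2 CPM (SD, n = 2), a 5.75-fold change with a log2 fold change of 2.52 (FDR = 7.52e-07, standard error 0.12). Among all tested genes, 7.16% had a higher log2 fold change than KLF6. With each library left out in turn it stayed between 2.41 and 2.59, and over 16 alternative settings between 2.33 and 2.87.

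KLF5 promotes proliferation of epithelial progenitor cells. KLF5 (ENSG00000102554), on the forward strand of chromosome 13 from 73054976 to 73077542, was at 50.0 and 51.2 CPM under vehicle and at 18.3 and 22.2 CPM under CPI-455. Both CPI-455 libraries lay under both vehicle libraries, from 1057 and 1118 counts under vehicle and 163 and 112 under CPI-455. Expression fell 2.52-fold (log2 fold change -1.33 with an FDR of 9.77e-05 and a standard error of 0.16). KLF4, a regulator of epithelial differentiation and one of the classical reprogramming factors, lies on chromosome 9 from 107484852 to 107490482. Its level was 28.8 and 24.8 CPM under vehicle and 16.6 and 20.2 CPM under CPI-455. The groups did not overlap, but the change was under 2-fold (log2 fold change -0.55, 95% interval -0.99 to -0.12, FDR = 0.0315) and KLF4 was not called. KLF4 had an FDR of 0.315 without vehicle replicate 1 and 0.107 without vehicle replicate 2, so its FDR below 0.05 depends on having both vehicle libraries, and it was also above 0.05 with DESeq2 (0.0957) and upper-quartile factors (0.119). The activator branch therefore held a gene that was called higher, KLF6, a gene that was called lower, KLF5, and a gene that was not called, KLF4.

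The region before the start of KLF6 is shown beside that of KLF13, the called member with the smallest FDR in each direction, because KLF proteins bind the kind of letters that such regions hold. The sequences are from RefSeq on GRCh38.p14 and give the 250 bases before the annotated start in the direction of transcription, for KLF6 chr10:3785210-3785459 on the reverse strand and for KLF13 chr15:31326585-31326834 on the forward strand. These starts are not always those of the Ensembl genes that were counted. The KLF6 and KLF15 regions run partly into the gene as given here, those of KLF4 and KLF11 and one of those of KLF5 lie inside it, and that of KLF13 lies outside it. Capitals mark the GC box, searched as GGGCGG, and the element CACCC, both on either strand (CCGCCC and GGGTG).
KLF6: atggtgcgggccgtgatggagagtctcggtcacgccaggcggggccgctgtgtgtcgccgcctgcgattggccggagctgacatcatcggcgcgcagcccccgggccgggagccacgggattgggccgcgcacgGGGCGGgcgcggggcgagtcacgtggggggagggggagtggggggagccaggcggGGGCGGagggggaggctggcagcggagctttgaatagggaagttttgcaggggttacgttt
KLF13: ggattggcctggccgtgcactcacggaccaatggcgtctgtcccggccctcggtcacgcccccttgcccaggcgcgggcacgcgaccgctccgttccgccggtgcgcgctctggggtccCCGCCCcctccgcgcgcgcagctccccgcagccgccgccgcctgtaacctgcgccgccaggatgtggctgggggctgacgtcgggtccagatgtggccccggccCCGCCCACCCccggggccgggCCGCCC
The KLF6 region held 2 GC boxes and no CACCC, and the KLF13 region held 3 GC boxes and 1 CACCC, which overlapped a GC box by its letters. Of 35116 RefSeq promoter regions of this length, which include those of genes not tested here, 42.6% held a GC box and 54.7% held CACCC. Regions were listed for 8 of the 10 KLF genes, as 10 regions, and KLF3 and KLF10 are not among those shown. A GC box was found in 8 of these 10 regions and CACCC in 4. Those of KLF16 and KLF15 held 7 and 6 GC boxes and no CACCC, that of KLF4 held 4 GC boxes, and that of KLF9, with a GC content of 32.4%, held neither. The median GC content of the 10 regions was 73.4%, beside 58.0% for all regions. A GC box was found in 60.6% of the regions of genes called higher and in 61.1% of those of genes called lower. CACCC was found in 60.7% and 58.3%, so both kinds of letters occurred at like rates in both directions. The shares over the regions of all tested genes were not computed.

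In the SIN3-binding branch, KLF13 was the member called. KLF13, first known for control of the chemokine gene CCL5 in T cells, lies on chromosome 15 from 31326855 to 31435665 as ENSG00000169926, with 8 exon blocks and an exon length of 9409 bases. It was counted 1456 and 1367 times under vehicle and 200 and 91 times under CPI-455. Its level was 68.9 and 62.6 CPM under vehicle and 22.5 and 18.0 CPM under CPI-455, with no overlap between the groups. This is a fall of 3.21-fold (log2 fold change -1.68 with an FDR of 2.35e-05 and a standard error of 0.17), and 11.6% of tested genes had a lower log2 fold change. With each library left out in turn the log2 fold change lay between -1.88 and -1.59.

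KLF16, a GC box binding repressor first described at dopamine receptor promoters, lies on chromosome 19 from 1852399 to 1863568 and has the exons of highest GC content among the 10 genes, at 68.2%. Its level was 52.5 and 49.4 CPM under vehicle and 27.0 and 24.0 CPM under CPI-455. Both CPI-455 libraries were at about the same level, below both vehicle libraries. The log2 fold change was -0.99 (FDR = 0.00041, standard error 0.15), just short of the 2-fold limit, so KLF16 was not called. It passed that limit in 6 of 16 alternative settings, among them those without vehicle replicate 2 (-1.06) and without CPI-455 replicate 1 (-1.10). A stretch of 483 of its exon bases (16.3%) is shared with ENSG00000267125, a long non-coding gene on the opposite strand with 0 counts in every library. Fragments on shared bases were assigned to neither gene, so these counts cannot show whether that stretch was transcribed from the opposite strand.

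KLF9, a repressor induced by glucocorticoid and thyroid hormones, was the other of the 10 genes with more transcript in both CPI-455 libraries at an FDR below 0.05. KLF9 (ENSG00000119138), on chromosome 9 from 70384597 to 70414624, was at 74.5 and 76.6 CPM under vehicle and at 109 and 111 CPM under CPI-455. Replicates lay closer together than for any other of the 10 genes under CPI-455. The log2 fold change was 0.54 (95% interval 0.28 to 0.80, FDR = 0.00289), which is under 2-fold and was not called. It was 0.87 with the length and GC trend removed and 0.35 with library totals alone. The FDR of KLF9 was 0.072 without vehicle replicate 1 and 0.0524 without vehicle replicate 2.

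KLF10 and KLF11 encode the TGF-beta-inducible early proteins, which repress growth genes. KLF10, on chromosome 8 from 102648779 to 102655902, was at 87.4 and 75.5 CPM under vehicle and 69.3 and 64.0 CPM under CPI-455. KLF11, on chromosome 2 from 10042849 to 10054836, was at 61.0 and 57.9 CPM under vehicle and 50.9 and 45.6 CPM under CPI-455. For both genes each CPI-455 library lay under each vehicle library, yet the difference did not pass the test. The log2 fold change of KLF10 was -0.29 (95% interval -0.59 to 0.02, FDR = 0.0889) and that of KLF11 was -0.29 (95% interval -0.60 to 0.01, FDR = 0.0877). These intervals hold no change of 2-fold in either direction. With the length and GC trend removed the values were -0.10 and -0.07. With library totals alone both were -0.48, with FDR values of 0.0127 for KLF10 and 0.0126 for KLF11. Without a filter they were -0.44 for KLF10 (FDR = 0.0196) and -0.45 for KLF11 (FDR = 0.0253). With each library left out in turn the log2 fold change lay between -0.41 and -0.20 for KLF10 and between -0.40 and -0.27 for KLF11. Whether these genes pass the FDR limit thus depends on the scaling and the filter, and neither was called.

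KLF3 represses genes of fat and blood cell development through CtBP. KLF3 (ENSG00000109787), on chromosome 4 from 38664196 to 38701042, was at 40.8 and 39.7 CPM under vehicle and at 20.02 and 34.3 CPM under CPI-455. The vehicle replicates nearly coincided, while the CPI-455 replicates differed by 0.77 on the log2 scale, the widest gap of any of the 10 genes. The log2 fold change was -0.60 (FDR = 0.0437, standard error 0.23), and KLF3 was not called. It was -1.05 without CPI-455 replicate 2, where KLF3 was called lower, and -0.25 without CPI-455 replicate 1, and removal of the length and GC trend gave -0.14 (FDR = 0.559). The direction of KLF3 held throughout but its size rests on which CPI-455 library is read.

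KLF3-AS1, a long non-coding gene on the opposite strand, shares 266 exon bases (4.22%) with KLF3. It had 25 and 11 counts under vehicle and 73 and 46 under CPI-455, or 1.18 and 0.504 CPM against 8.21 and 9.12 CPM. KLF3-AS1 was called higher (log2 fold change 3.35 with an FDR of 0.000299 and a standard error of 0.49), opposite in direction to the value of KLF3. Of all tested genes 21.0% were called higher. Long non-coding genes together took 1.71% and 1.55% of counts under vehicle and 7.32% and 8.79% under CPI-455. Most of the CPI-455 shares was MALAT1 alone, which took 0.114% and 0.0884% under vehicle and 4.95% and 6.49% under CPI-455. A link between KLF3-AS1 and KLF3 was not tested. Strand was ignored in the counting, so a fragment on the shared bases was assigned to neither gene. The antisense gene ENSG00000271787, which shares 416 exon bases with KLF11, had 1 count in all 4 libraries together, and the pseudogene KLF3P1 had 3, 1, 7 and 3 counts.

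KLF15, a regulator of amino acid and glucose metabolism in muscle and liver, was the lowest of the 10 genes under vehicle. KLF15, on chromosome 3 from 126342635 to 126357442, was counted 220 and 236 times under vehicle and 123 and 55 times under CPI-455, or 10.4 and 10.8 CPM against 13.8 and 10.9 CPM. The second CPI-455 library lay beside the vehicle libraries. The log2 fold change was 0.24 (95% interval -0.30 to 0.78, FDR = 0.416), so no change was detectable at this depth, and a 2-fold change lies outside the interval. The value was -0.027 with the length and GC trend removed.

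**Figure D2:**
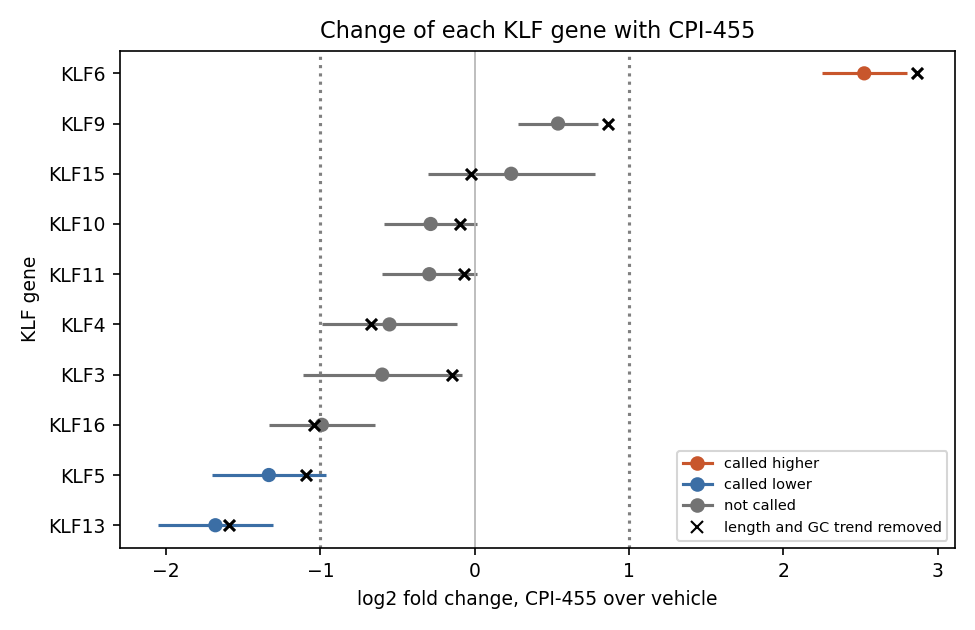
Log2 fold change of each KLF gene, CPI-455 over vehicle, with 95% intervals from edgeR's quasi-likelihood fit on 2 libraries per group (points and lines), dotted lines at 2-fold, and crosses for the value with the length and GC trend removed. KLF6 stands alone beyond the upper line at 2.52, KLF5 and KLF13 lie beyond the lower one at -1.33 and -1.68, and KLF16 touches it at -0.99.

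**Figure D3:**
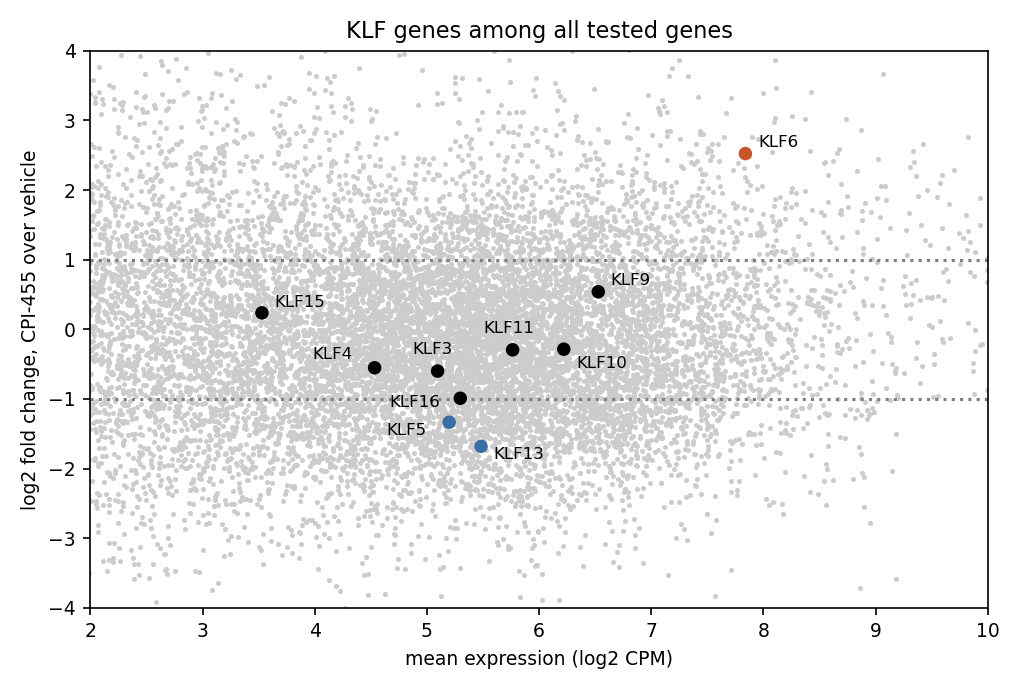
Mean expression (log2 CPM) against log2 fold change, CPI-455 over vehicle, for the tested genes (grey) with the 10 KLF genes marked (orange called higher, blue called lower, black not called). The axes hold 12522 of the 17600 tested genes and leave out the rest. The KLF genes other than KLF6 lie within the body of the cloud.

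Levels of different KLF genes were compared per exon length, as FPKM, which is the normalized CPM divided by the exon length in kilobases. That length includes bases shared with another gene, where fragments were not assigned. These are 16.3% of the exon bases of KLF16, 9.07% of those of KLF11 and 4.22% of those of KLF3. The FPKM of these 3 genes is therefore too low to an extent that was not corrected. With vehicle the order from high to low was KLF10, KLF16, KLF9, KLF5, KLF11, KLF6, KLF4, KLF13, KLF3 and KLF15, from 20.3 ± 2.10 FPKM (SD, n = 2) for KLF10 to 3.73 ± 0.10 FPKM (SD, n = 2) for KLF15. The replicate values of KLF5 and KLF11 overlapped, as did those of KLF4 and KLF13, so the order within these pairs is not set. Because of the shared bases, the places of KLF16, KLF11 and KLF3 against the genes just above them are not set either. With CPI-455 the order was KLF6, KLF9, KLF10, KLF11, KLF16, KLF5, KLF4, KLF15, KLF3 and KLF13, from 64.2 ± 4.44 FPKM (SD, n = 2) for KLF6 to 2.15 ± 0.33 FPKM (SD, n = 2) for KLF13. Here KLF5, KLF4 and KLF15 each overlapped the next gene in that order, down to KLF3. KLF6 thus moved from the middle of the order to the top, with a level above that of KLF9, the next gene, in both libraries.

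The make-up of the KLF transcript pool, the sum of the 10 FPKM values in a library, shifted with it. KLF6 held 10.1% and 9.54% of the pool in the vehicle libraries and 43.8% and 46.4% in the CPI-455 libraries. KLF10 had the largest part under vehicle with full exon lengths, at 18.6% and 17.1%, and held 12.4% and 11.01% under CPI-455. KLF16 went from 15.1% and 15.2% to 6.56% and 5.59%, and KLF5 from 10.96% and 11.9% to 3.38% and 3.93%. Shares of one pool are tied to each other, so the larger share of KLF6 lowers the others. The pool summed to 117 and 110 FPKM under vehicle and to 139 and 145 FPKM under CPI-455, while the sum without KLF6 was 105 and 99.7 FPKM under vehicle and 78.2 and 77.9 FPKM under CPI-455. KLF9 was the gene besides KLF6 whose share was larger in both CPI-455 libraries than in both vehicle libraries, at 15.1% and 14.8% against 12.3% and 13.4%.

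**Figure D4:**
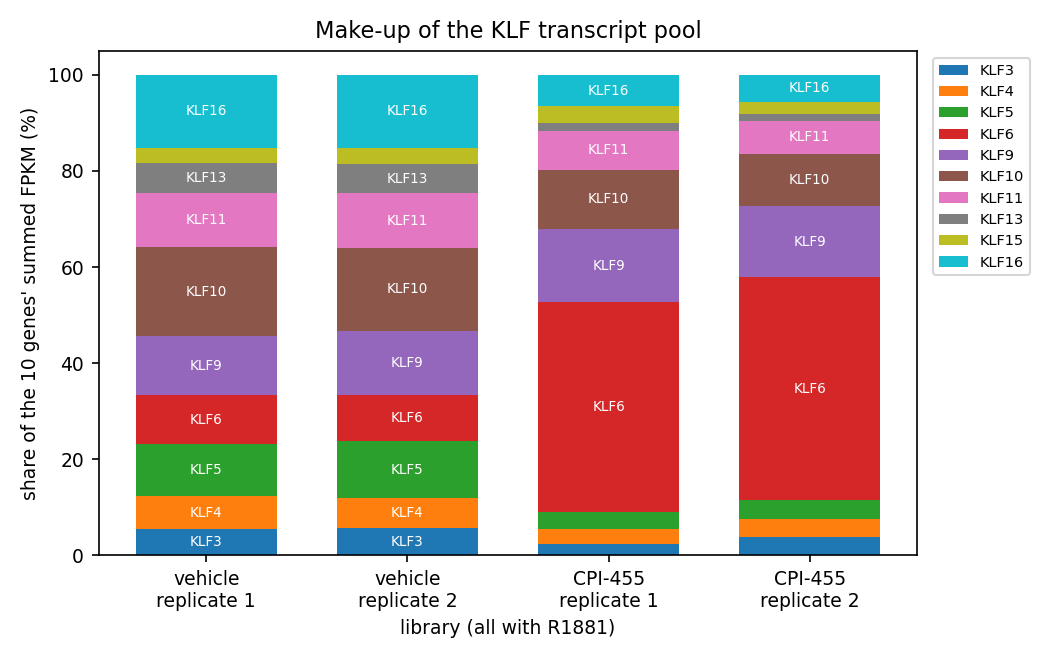
Share of the summed FPKM of the 10 KLF genes held by each gene in each of the 4 libraries (bars stack to the whole pool). The KLF6 part is 10.1% and 9.54% under vehicle and 43.8% and 46.4% under CPI-455, and replicates of a group look alike.

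The genes whose pattern over the 4 libraries lay nearest to that of KLF6 were DYNC2I1, a subunit of the ciliary dynein, DNAJC2, a ribosome-bound co-chaperone, and HSPB1, a small heat shock protein. Their Euclidean distances were 0.09, 0.11 and 0.11 on centred log2 CPM, among 2314 genes with a mean within 1 log2 unit, and their log2 fold changes were 2.55, 2.49 and 2.61. For KLF13 the near genes TRUB2 and SGPL1 lay at distances of 0.03 and 0.07 among 5635 genes, with log2 fold changes of -1.71 and -1.74. With 4 libraries in 2 groups this likeness mostly restates the size of the change.

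The other 8 KLF genes were read in the same way, and 4 of them passed the filter. KLF12, a repressor that binds CtBP like KLF3, fell from 122 ± 2.12 CPM (SD, n = 2) to 27.7 ± 0.67 CPM (SD, n = 2), a log2 fold change of -2.14 (FDR = 1.83e-06, standard error 0.13). KLF7 was at 17.7 ± 1.93 CPM and 24.0 ± 8.67 CPM (SD, n = 2) and KLF2 at 5.25 ± 0.60 CPM and 3.91 ± 0.92 CPM (SD, n = 2), with FDR values of 0.184 and 0.303. KLF14 was called higher with an FDR of 0.0348, but on 2 and 7 counts under vehicle and 7 and 9 under CPI-455, and so near the limit of detection that no fold is given. KLF1, KLF8, KLF17 and KLF18 had at most 7 counts in any library. Of the 9 SP genes, whose proteins share the zinc finger block and bind the same GC boxes, 7 were tested, 4 were called lower (21.3% of all tested genes) and none was called higher (21.0%). Their median log2 fold change was -1.39 beside -0.04 for all tested genes, and -0.89 with 3 called lower when the length and GC trend was removed, where SP4 was no longer called. SP1 was at -1.79 (FDR = 3.60e-06) and SP2 at -1.60 (FDR = 0.000481).

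Cofactors of the KLF branches were then counted, on lists made with earlier results of these data known. Of 7 tested acetyltransferase coactivators, 1 was called higher and 3 were called lower, and the 7 genes had a median of -0.69 on the log2 scale, or -0.22 with the length and GC trend removed. Of all tested genes 21.0% were called higher and 21.3% lower, with a median of -0.04, or 0.03 with the trend removed. Of tested protein-coding genes 15.6% were called higher and 24.4% lower, with a median of -0.21, or -0.06 with the trend removed. Each list here and below is to be read beside both sets of values. EP300 fell by 1.72, CREBBP fell by 1.57 and KAT2B fell by 2.75 on the log2 scale, with FDR values of 3.36e-06, 9.79e-06 and 1.40e-05. KAT2A, a catalytic subunit of the SAGA complex, rose from 99.5 ± 11.6 CPM (SD, n = 2) to 586 ± 77.6 CPM (SD, n = 2), a log2 fold change of 2.56 (FDR = 1.07e-06). Of 13 tested CtBP and SIN3 corepressor genes, 2 were called lower and none higher, with a median of 0.03 (0.13 with the trend removed). SIN3A, the scaffold that the KLF9 branch binds, fell by 1.46 on the log2 scale (FDR = 1.64e-05), and the histone chaperone RBBP4 fell by 1.14 (FDR = 1.57e-05), which was -0.65 and no longer called with the trend removed. CTBP1 (log2 fold change 0.21, FDR = 0.158) was not called. CTBP2 fell from 148 ± 9.86 CPM to 79.0 ± 1.51 CPM (SD, n = 2), a log2 fold change of -0.91 (FDR = 0.000136), without reaching 2-fold. SIN3B was at 95.3 ± 2.06 CPM under vehicle and 162 ± 25.5 CPM under CPI-455 (SD, n = 2), also without reaching 2-fold.

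Of 8 tested genes described as adding or removing ubiquitin on KLF proteins, 3 were called lower, beside 21.3% of all tested genes, and none higher, with a median of -0.44. The median was -0.06 with the trend removed, where 2 were called lower and WWP1, at -0.95, was not. They were WWP1, a ligase of KLF5, with a log2 fold change of -1.46 (FDR = 4.68e-05), BTRC with -2.14 (FDR = 3.17e-06) and USP10 with -1.60 (FDR = 6.01e-06). TGF-beta signalling, which induces KLF10 and KLF11, had 15 tested genes, of which 6 were called lower (21.3% of all tested genes) and 1 higher (21.0%), with a median of -0.39, or -0.44 with the trend removed. TGFBR1, the type I receptor, fell from 173 ± 2.86 CPM to 23.3 ± 1.28 CPM (SD, n = 2), and SKI, a corepressor of SMAD proteins, fell by 1.74 on the log2 scale (FDR = 5.92e-07 and 3.77e-06). SMAD6, an inhibitory SMAD, rose by 1.11 (FDR = 0.0021), and SMAD7, a gene that KLF10 is known to repress, was at 14.0 ± 1.22 CPM and 15.0 ± 1.5 CPM (SD, n = 2) and was not called.

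Steroid receptors and genes that they induce, a group to which KLF9 and KLF15 belong in other tissues, held called genes in both directions. Of 10 tested, 4 were called higher (21.0% of all tested genes) and 3 lower (21.3%), with a median of 0.08, or 0.37 with the trend removed. TSC22D3, a glucocorticoid-induced leucine zipper gene, rose from 206 ± 8.81 CPM to 1093 ± 99.4 CPM (SD, n = 2, FDR = 7.33e-07), and the clock gene PER1 rose from 33.2 ± 0.49 CPM to 148 ± 26.1 CPM (SD, n = 2, FDR = 3.24e-06). FKBP5, a co-chaperone of steroid receptors, fell by 1.53 on the log2 scale and the glucocorticoid receptor gene NR3C1 fell by 1.62 (FDR = 7.92e-06 and 2.12e-05). Of 17 tested genes that have been described as KLF targets, 5 were called higher (21.0% of all tested genes) and 5 lower (21.3%), with a median of 0.09. With the trend removed 5 were called higher and 4 lower, with EGFR at -0.88 no longer called, and the median was 0.17. ATF3, a stress-induced factor described as a KLF6 target, rose from 345 ± 2.91 CPM to 1733 ± 21.9 CPM (SD, n = 2, FDR = 5.83e-07), and BCAT2, an amino acid enzyme described as a KLF15 target, rose by 1.41 on the log2 scale (FDR = 1.40e-05). CDKN1A, which encodes the inhibitor p21 and is described as activated by KLF4 and KLF6, fell from 127 ± 4.54 CPM to 34.8 ± 4.96 CPM (SD, n = 2, FDR = 5.56e-06), and CCND1 fell by 1.59 on the log2 scale (FDR = 4.73e-05). Binding of KLF proteins was not measured.

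**Figure D5:**
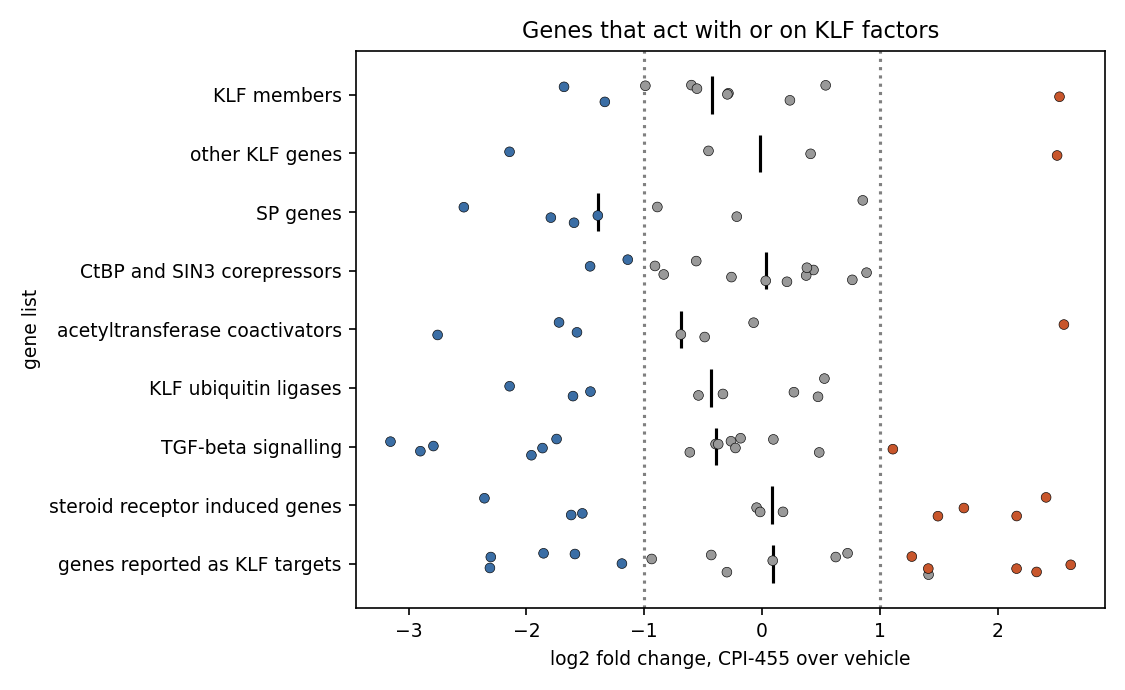
Log2 fold change, CPI-455 over vehicle, of each tested gene in the KLF list and in 8 lists of related genes (1 point per gene, orange called higher, blue called lower, grey not called), with a vertical line at each list's median and dotted lines at 2-fold. The SP genes have the lowest median, -1.39, and the steroid-related genes and KLF targets hold called genes in both directions.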

How the data were processed

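Adapters were trimmed by the authors with Trim Galore, alignment to GRCh38 used STAR, and featureCounts 1.5.0-p1 counted fragments over genes of Ensembl 83. The deposited files hold raw counts, 1 library each. Per the file headers strand was ignored and no option kept fragments that map to several places or genes.

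Counts were tested with edgeR 4.0.16 in R 4.3.3 (TMM factors 0.936 to 1.08, filterByExpr at a minimum of 10 counts, glmQLFit and glmQLFTest, 2-sided, no covariates). The code was also run on simulated counts with the same dispersion for all genes and few changed genes, balanced in direction. That run cannot show how the test behaves under a change as broad as the one here. Fold changes are CPI-455 over vehicle, and standard errors come from the F statistic. CPM and FPKM use TMM library sizes, with exon lengths as deposited. A count of 3, the detection floor used here, is 0.145 to 0.555 CPM, for counting error only. The methods call the 2 libraries of a group biological replicates without naming separate cultures, so p-values measure the spread between these libraries.

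The KLF genes and all gene lists were chosen with earlier results of these data known. Named from other lists are the 2 called genes with the smallest FDR in each direction, all called genes where these number 3 or fewer, and all KLF and SP genes may be named. CTBP1, CTBP2, SIN3B, SMAD7 and EGFR were chosen after their values were seen. Some genes that this rule names are not reported here. Promoter sequences are from RefSeq.

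Alternatives were RLE, upper-quartile and library-total scaling, TMM without mitochondrial genes and MALAT1, no filter, at least 10 counts throughout, a likelihood-ratio test, DESeq2 1.42.0, a replicate block, the GC and length curve (mgcv 1.9.3) alone and with the block, thinning, each library left out, FDR below 0.01 and glmTreat.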

Additional observations from a re-analysis of the deposited data

How the results depend on the processing

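KLF6 was the KLF gene called higher in each of the 18 settings tried, and KLF5 and KLF13 were called lower in each. The number called lower was 2 or 3. KLF16 was the third with library totals alone (log2 fold change of -1.18), without a filter (-1.15), with the length and GC trend removed (-1.04, with and without the replicate block), without vehicle replicate 2 (-1.06) and without CPI-455 replicate 1 (-1.10), and KLF3 was the third without CPI-455 replicate 2 (-1.05). With each library left out the number called lower ranged from 2 to 3 and the number called higher stayed at 1. In those fits the lone library is assumed to vary like the other group. KLF15, which was not called, changed sign to -0.027 with the length and GC trend removed and to -0.030 when the replicate block was added. Scaling moved the median of all tested genes from -0.04 with TMM to -0.23 with library totals and to 0.14 with upper-quartile factors, and over all 16 alternative fits the log2 fold change of KLF9 lay between 0.35 and 0.87. With the replicate number as a block (replicate block), KLF6 had a log2 fold change of 2.52 and no call changed. The deviations of same-numbered libraries had a correlation of 0.04 across genes, and nothing in the labels ties the numbers to a shared culture. Depth was lower with CPI-455, and after thinning to the shallowest library KLF6, KLF5 and KLF13 were called and KLF3 was at -0.39. Over all tested genes, glmTreat against a 2-fold change called 2455 higher and 2350 lower, beside 3698 and 3756.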
